A study of Mus musculus with 4 samples.

Results

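Prg4, Clic5, Tspan15, F13a1, Cyp1b1, Pla1a and Tmem196 are 7 of the 15746 genes counted in single cells of mouse Achilles tendon. They were chosen by their UMI counts in these same cells, in which they lead in bursal fibroblasts, so their lead there is a description and carries no test. Every tendon came from male C57Bl/6 mice aged 6 weeks, and all 4 libraries, numbered 1 to 4, form 1 untreated group. Libraries were prepared with version 3 of the 10x Genomics Chromium 3-prime kit, in which a unique molecular identifier (UMI) marks each captured transcript at its 3-prime end. The labels leave unstated whether a library holds 1 mouse or several, so the spread given below is that between libraries and may be technical. The authors named 13 populations from the same counts, and their names are kept.

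The bursa beside the Achilles tendon is a fluid-filled sac whose inner face is lined by fibroblasts of the synovial kind. Lining cells of joints, tendon sheaths and bursae secrete lubricin and hyaluronan, which let the facing surfaces slide. Prg4 encodes lubricin, a mucin-like proteoglycan that acts as a boundary lubricant. Clic5 encodes a protein of the chloride intracellular channel family that associates with ezrin and the cortical actin under the cell membrane. Tspan15 encodes a tetraspanin that pairs with the metalloprotease Adam10. F13a1 encodes the A subunit of coagulation factor XIII, a transglutaminase that cross-links fibrin and is known from macrophages and platelets. Cyp1b1 encodes a cytochrome P450 enzyme that oxidises steroids and retinoids, and it is a classic target of the aryl hydrocarbon receptor. Pla1a encodes a secreted phospholipase that acts on phosphatidylserine and yields lysophosphatidylserine. Tmem196 encodes a membrane protein.

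Upstream sequence is shown for the 2 genes in which a searched motif was found, because one of them, Cyp1b1, is the textbook target of the receptor whose motif was searched. RefSeq promoter records on GRCm38.p6 were matched for 5 of the 7 genes (Clic5, Tspan15, F13a1, Cyp1b1 and Tmem196, not Prg4 or Pla1a), and the 250 bases before each start were searched on both strands. The motifs were GCGTG, the core of the aryl hydrocarbon receptor element, TGANTCA for AP-1 and TGACGTCA for the cyclic AMP response element. None of them overlaps another in the sequences shown, and capitals mark the matches, which read CACGC where the element lies on the other strand. The Cyp1b1 sequence is chr17:79715062-79715311 and the Tspan15 sequence is chr10:62231219-62231468, both on the minus strand and printed 5′ to 3′.
Cyp1b1: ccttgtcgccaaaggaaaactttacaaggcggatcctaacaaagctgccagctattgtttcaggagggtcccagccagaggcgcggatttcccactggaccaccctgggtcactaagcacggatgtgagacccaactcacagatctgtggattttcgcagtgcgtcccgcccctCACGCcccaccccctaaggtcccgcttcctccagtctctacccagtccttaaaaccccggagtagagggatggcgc
Tspan15: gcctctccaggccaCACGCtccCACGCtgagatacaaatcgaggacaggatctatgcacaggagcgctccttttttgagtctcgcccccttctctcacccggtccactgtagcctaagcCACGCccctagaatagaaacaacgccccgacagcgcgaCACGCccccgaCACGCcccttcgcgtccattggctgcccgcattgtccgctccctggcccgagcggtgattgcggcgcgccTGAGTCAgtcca
The Cyp1b1 window held 1 match to the receptor core, 76 bases before the start. The Tspan15 window held 5 such matches, at 236, 228, 131, 93 and 82 bases, and TGAGTCA at 12 bases before the start. Of 32851 mouse promoter windows of this length, 28.16% held the receptor core, 6.749% the AP-1 letters and 1.546% the cyclic AMP letters. The windows of Clic5, F13a1 and Tmem196 held none of the 3 motifs. A match describes letters and is neither a binding site nor a cause of a level.

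The count table held 580, 246, 256 and 109 cells in libraries 1 to 4, with 5603366, 2252390, 2269014 and 1375111 UMIs. Of the 40 bursal fibroblasts, 30 were in library 1, 0 in library 2 and 5 each in libraries 3 and 4. Their median of 20284 UMIs per cell was above that of every other population (2591 to 10662). No barcode was shared by 2 libraries. Within libraries, 7 pairs of barcodes differed at 1 base, 6 of them in library 4, and each pair joined a cell of 1024 to 1883 UMIs to one of 24222 to 43707 UMIs with the same name. Of these pairs, 1 lay among the 5 bursal fibroblasts of library 4 (1122 and 29583 UMIs). If it is 1 cell, library 4 falls below the 5 cells asked of a sum. Of the 7 lining markers, Prg4, Clic5 and Tspan15 are among the genes chosen for their lead and say nothing about the name. The other 4 (Has1, Htra4, Col22a1 and Cd55) were also highest in bursal fibroblasts, with a summed level of 3341 to 7353 CPM per library against 656 to 1306 CPM in tendon fibroblasts 1. These 4 are on a gene list drawn up with earlier results of these cells known. The populations were formed from the same counts, so this too is a description. Levels are in CPM, a gene's UMIs for each 1000000 UMIs of the summed cells. Since 1 UMI stands for 1 captured transcript end, they do not scale with gene length, though capture may differ between genes. Of 9 macrophage markers, 7 were at 0 in bursal fibroblasts (C1qa, C1qb, C1qc, Csf1r, Mrc1, Adgre1 and Ptprc), and the list summed to at most 9.96 CPM in a library, against 9368 to 20921 CPM in immune cells. Endothelial markers summed to 9.96 to 50.7 CPM there, with Tie1 and Emcn at 0. Red blood cell markers summed to between 29.9 and 9368 CPM. Tendon fibroblast markers summed to 1809 to 8512 CPM in bursal fibroblasts, with Tnmd at 0, against 105780 to 144668 CPM in tendon fibroblasts 1. Osteoblast markers summed to 49.8 to 1202 CPM, with Ibsp, Dmp1 and Alpl at 0, against 31.3 to 1847 CPM in tendon fibroblasts 1. The sums hold different genes, since in tendon fibroblasts 1 only Dmp1 was at 0. The bursal sum was Bglap and Bglap2 (227 and 702 CPM pooled), both highest of the 13 populations in bursal fibroblasts.

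Prg4 gave the most UMIs of the 7 genes, 156504 in all cells, and bursal fibroblasts held most of them. It made up 192126 CPM of the bursal UMIs in library 1, 101472 CPM in library 3 and 100270 CPM in library 4, or 131289 ± 52690 (SD, n = 3). All 3 values lay above those of every other population, and library 1 was the highest. Tendon fibroblasts 1 came next with 6653, 8752, 6983 and 5173 CPM in libraries 1 to 4. Tendon fibroblasts 2 had 3411, 3296 and 7097 CPM in libraries 1, 3 and 4, a range that overlapped that of tendon fibroblasts 1. Tendon fibroblasts 3 held 50.6 CPM in library 1, the only library with 5 or more of those cells, and this was near the level in cells that are not fibroblasts. Pooled over libraries, the bursal level was 24.6 times that of tendon fibroblasts 1, and 14.9 times without library 1. Of all Prg4 UMIs, 88.1% lay in the 40 bursal cells.

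The bursal share of a library's Prg4 UMIs was 94.1%, 55.9% and 85.7% in libraries 1, 3 and 4, or 78.55% ± 20.09 (SD, n = 3). Library 3, with 83 tendon fibroblasts 1 and 5 bursal cells, had the lowest share. Single bursal cells ran from 5570 to 297225 CPM of Prg4, with a median of 146241 CPM. All 40 held the transcript, and the least had 18 UMIs. A bursal cell of library 1 (3226 UMIs) had 5580 CPM of Prg4 and 39368 CPM of the tendon fibroblast markers. A bursal cell of library 3 (14621 UMIs) had 43567 and 38233 CPM. Both had 0 UMIs of Clic5 and Tspan15. Tendon fibroblasts 1 had a median of 5800 CPM and a highest cell of 26643 CPM. Nearly every one of those cells carried it: after every cell was thinned to 2400 UMIs, 159 of 161 had a Prg4 UMI, or 98.8% (exact 95% interval 95.6 to 99.8). Tendon fibroblasts 2 were more uneven, with 99 of 148 thinned cells (66.9%, interval 58.7 to 74.4) and a median of 926 CPM per cell beside a highest cell of 52757 CPM. The unthinned shares were 98.3% and 85.9%. Red blood cells, taken as cells that should lack the transcript, had it in 6.90% unthinned and 3.77% thinned, at a median of 4132 UMIs against 8824 in tendon fibroblasts 1. They were the lowest of the populations: immune cells had it in 32.6% unthinned and 19.5% thinned, and endothelial cells 3 in 44.4% and 21.9%.

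**Figure D1:**
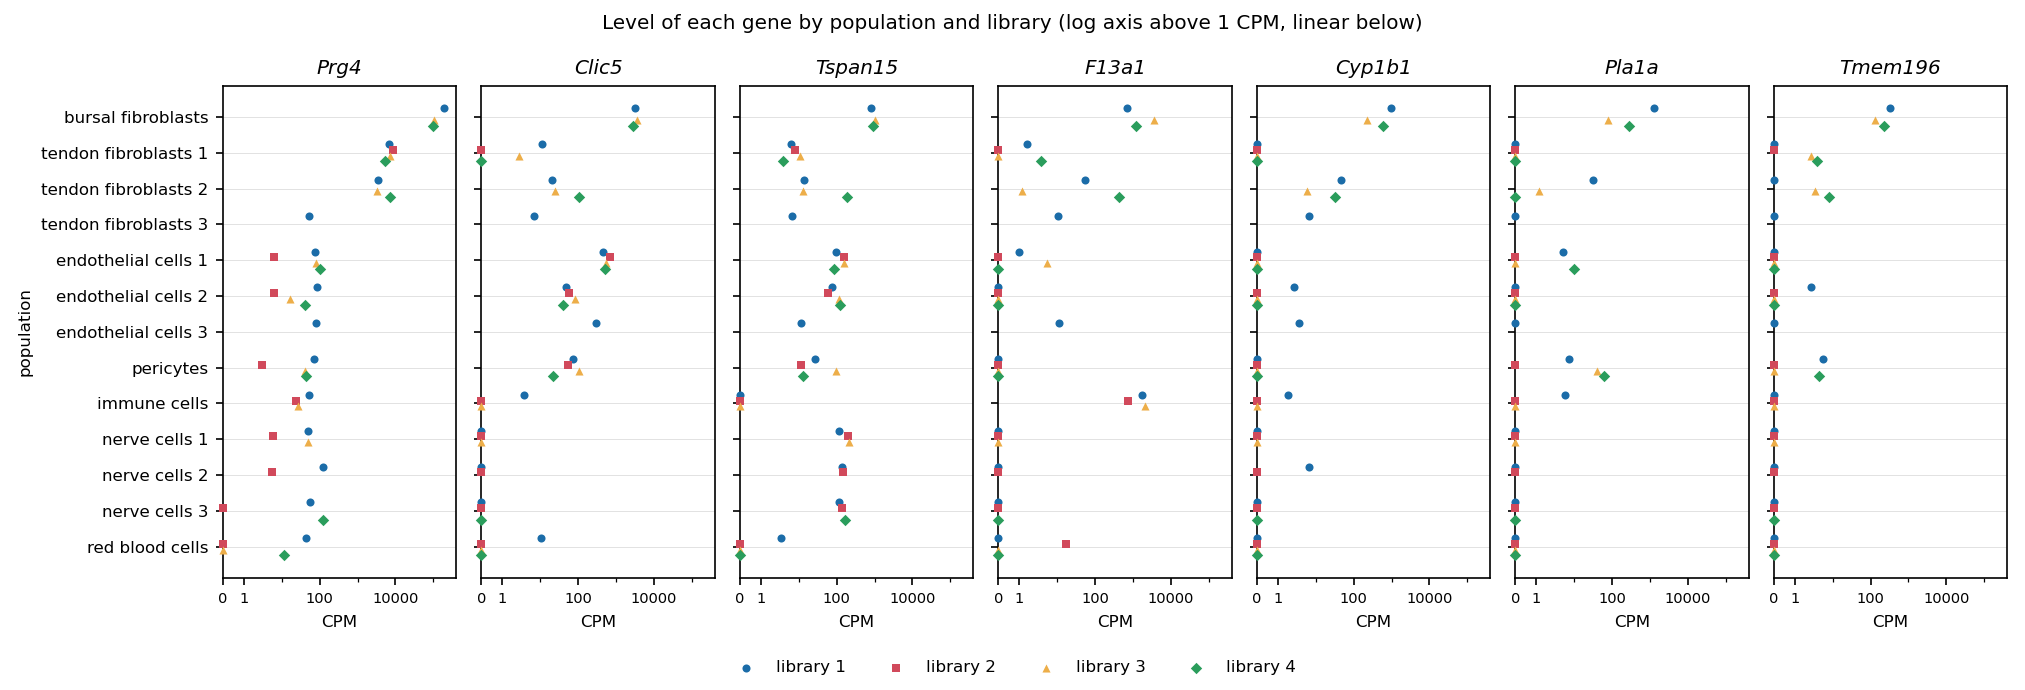
Level of each of the 7 genes in CPM (log axis above 1 CPM, linear below) in each population, 1 point per library with 5 or more cells. Bursal points of Prg4 sit at 100270 CPM or more, Clic5 recurs in endothelial cells 1 (450 to 673 CPM), and F13a1 recurs in immune cells (719 to 2008 CPM).

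Outside the fibroblasts, Prg4 reached at most 121 CPM in any population and library with 5 or more cells, and at most 23.2 CPM in library 2. Endothelial cells 1 had 76.2, 6.23, 79.2 and 99.9 CPM in libraries 1 to 4, pericytes 70.8, 2.92, 40.3 and 44.2 CPM, and endothelial cells 2 83.8, 6.28, 16.8 and 40.5 CPM. Library 2 was the lowest in all 3. It has no bursal fibroblasts, and its Prg4 over all cells was 502 CPM, against 21542, 8032 and 11954 CPM in libraries 1, 3 and 4. Red blood cells had 44.7, 0, 0 and 11.1 CPM. The part of transcripts from other cells in these low levels was not tested.

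**Figure D2:**
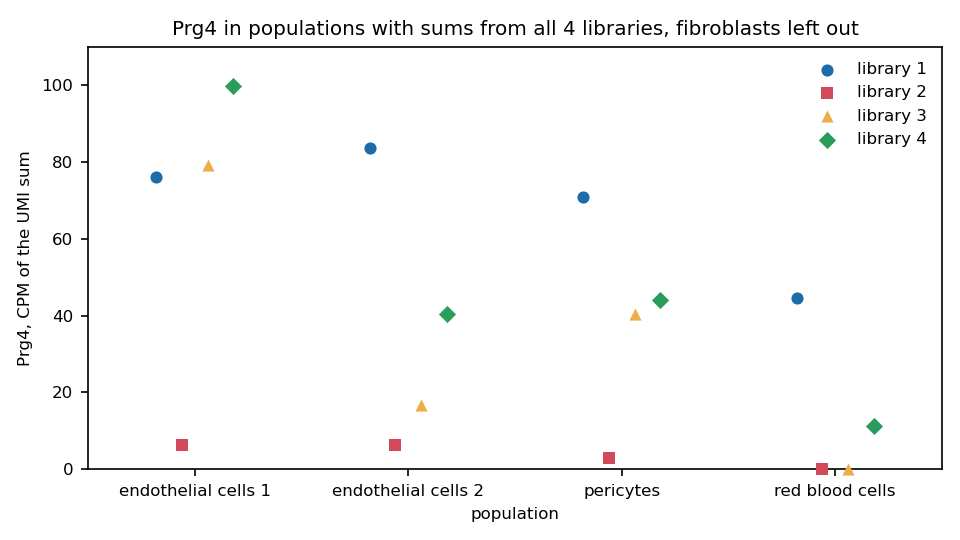
Prg4 in CPM (linear axis from 0) in the 4 populations outside the fibroblasts that have a sum from every library, 1 point per library. Library 2, with 0 bursal fibroblasts, is lowest in endothelial cells 1 (6.23 CPM), endothelial cells 2 (6.28 CPM) and pericytes (2.92 CPM), and is at 0 in red blood cells together with library 3.

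Clic5 was shared between the bursal lining and the endothelium. Bursal fibroblasts had 3204, 3577 and 2770 CPM in libraries 1, 3 and 4 (3184 ± 404, SD, n = 3), the most even of the 7 genes over libraries beside Tspan15. Endothelial cells 1 followed with 450, 673, 554 and 506 CPM in libraries 1 to 4, and endothelial cells 3 had 296 CPM in library 1. Pericytes (22.1 to 108 CPM) and endothelial cells 2 (40.5 to 84.1 CPM) overlapped each other, far below. Tendon fibroblasts 1 had 11.1, 0, 2.70 and 0 CPM, and nerve cells 1, 2 and 3 had 0 UMIs. The bursal level was 6.08 times that of endothelial cells 1, and 29.97% of all Clic5 UMIs lay in endothelial cells against 66.6% in bursal fibroblasts. Without library 1 these shares were 43.9% and 51.5%. In library 2, where there were no bursal cells, 88.3% of Clic5 UMIs were in endothelial cells 1.

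Tspan15 had the widest spread over cell types. Bursal fibroblasts had 827, 1026 and 890 CPM (914 ± 102, SD, n = 3). The 3 nerve populations came next and overlapped each other, with 117, 193 and 212 CPM in nerve cells 1 (libraries 1 to 3), 141 and 147 CPM in nerve cells 2 (libraries 1 and 2) and 113, 138 and 162 CPM in nerve cells 3 (libraries 1, 2 and 4). Endothelial cells 1 had 93.0, 160, 153 and 87.0 CPM and endothelial cells 2 had 75.9, 59.7, 118 and 122 CPM, again overlapping. Bursal fibroblasts held 57.3% of its UMIs, endothelial cells 23.5% and nerve cells 11.9%. The nerve share was 20.2% without library 1 and 5.39% without library 2. After thinning, 83.8% of bursal fibroblasts, 31.9% of nerve cells 1 (interval 19.1 to 47.1), 21.0% of endothelial cells 1 and 0.943% of red blood cells had a Tspan15 UMI. Unthinned, these shares were 90.0%, 55.1%, 53.7% and 0.690%. Immune cells held none: 0 of 92 cells had a Tspan15 UMI, which allows a level of up to 4.235 CPM (3 counts).

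F13a1 did not lead in bursal fibroblasts by every measure. Bursal fibroblasts had 687, 3627 and 1168 CPM in libraries 1, 3 and 4 (1827 ± 1577, SD, n = 3), and immune cells had 1673, 719 and 2008 CPM in libraries 1 to 3 (1466 ± 669, SD, n = 3). The ranges overlapped. After thinning, 72.4% of immune cells (interval 61.8 to 81.5) and 62.2% of bursal fibroblasts (44.8 to 77.5) had an F13a1 UMI, against 0.943% of red blood cells, and the intervals overlap. Unthinned, 69 of 92, 34 of 40 and 1 of 145 cells had one, at medians of 7108.5, 20284 and 4132 UMIs. Within library 1 immune cells were higher, and within library 3 bursal fibroblasts were. Pooled over all cells, immune cells were higher, at 1539 CPM (exact 95% Poisson interval 1449 to 1633, counting error only) against 1122 CPM (1052 to 1197). This order rests on library 1: without it bursal fibroblasts were at 2193 CPM and immune cells at 1109 CPM. The mean over libraries of bursal fibroblasts was 927 CPM without library 3 and 2397 CPM without library 1. Immune cells held 51.0% of F13a1 UMIs and bursal fibroblasts 43.7%, and without library 1 the shares were 24.1% and 68.0%. The median of single cells was 1004 CPM in immune cells and 577 CPM in bursal fibroblasts. All other populations outside the tendon fibroblasts had at most 16.8 CPM in a library with 5 or more cells. The 7 macrophage markers named above were at 0 in all 40 bursal cells.

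Cyp1b1, Pla1a and Tmem196 were low outside bursal fibroblasts, which held 92.7%, 93.2% and 95.3% of their UMIs. For Pla1a that share was 95.4% in library 1 but 66.7% of 12 UMIs in library 3 and 69.0% of 58 UMIs in library 4, where pericytes held 3 and 14 UMIs. Cyp1b1 had 942, 229 and 591 CPM in the bursal cells of libraries 1, 3 and 4 (587 ± 356, SD, n = 3). Its next population was tendon fibroblasts 2, with 47.4, 5.81 and 32.2 CPM. Tendon fibroblasts 1, endothelial cells 1, pericytes and red blood cells had 0 Cyp1b1 UMIs. Pla1a had 1258, 79.7 and 285 CPM in bursal cells (541 ± 630, SD, n = 3), and its mean was 182 CPM without library 1. Pericytes came next, with 7.26, 0, 40.3 and 61.8 CPM in libraries 1 to 4. Tmem196 had 335, 130 and 221 CPM in bursal cells (228 ± 103, SD, n = 3) and at most 8.06 CPM in any other population and library. After thinning, 78.4% of bursal fibroblasts had a Cyp1b1 UMI, 75.7% a Pla1a UMI and 51.4% a Tmem196 UMI (97.5%, 77.5% and 80.0% unthinned). Library 2, with no bursal cells, held 0 UMIs of each of these 3 genes, and so did its red blood cells and those of the other libraries.

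**Figure D3:**
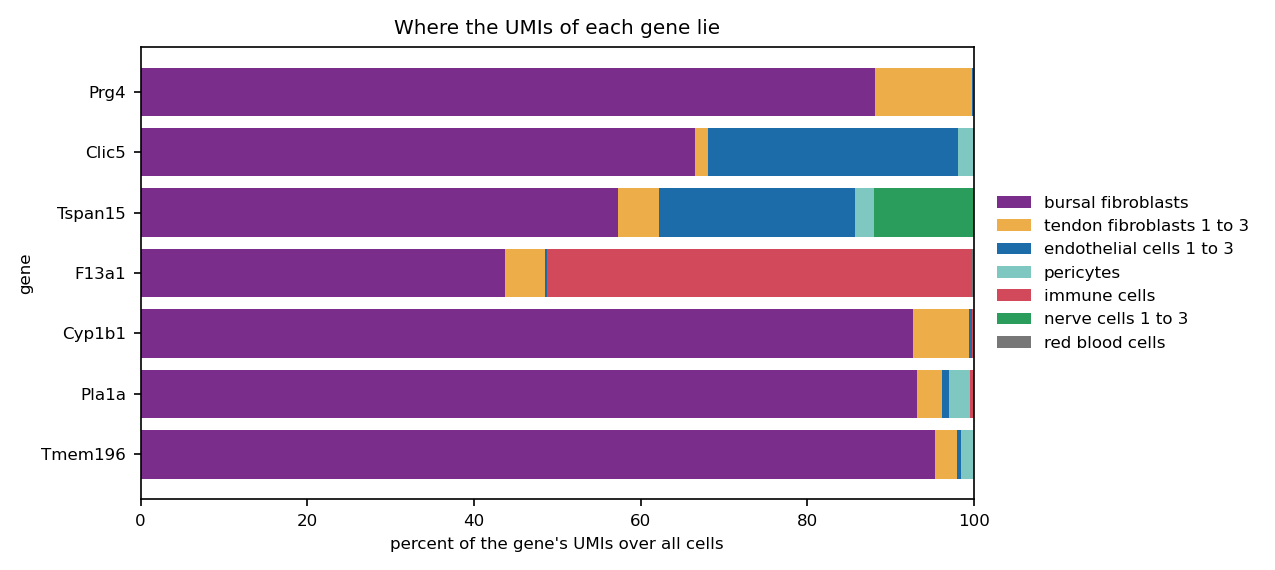
Percent of each gene's UMIs, over all cells of all libraries, that lie in each group of populations (bars add to 100). Bursal fibroblasts hold from 43.7% (F13a1) to 95.3% (Tmem196), endothelial cells hold 29.97% of Clic5 and 23.5% of Tspan15, and immune cells hold 51.0% of F13a1 (24.1% without library 1).

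The 6 genes other than Prg4 were found together in single bursal cells. They were chosen for their lead in these cells, so the contrast with other cells is a description. The cells were not thinned here, and bursal fibroblasts were deeper, with a median of 20284 UMIs against 2591 to 10662 in the other populations. All 6 were present in 24 of 40 bursal fibroblasts, and 4 or more were in 37. Among the 1151 other cells, 4 had 4 or more and 0 had all 6, and the median was 0. All 4 of those cells were named tendon fibroblasts 2. The deepest, in library 4, had 35288 UMIs with 751 of Prg4, 53 of F13a1, 22 of Tspan15 and 13 of Clic5, and 793 CPM of the 9 tendon fibroblast markers, which sum to 42654 CPM or more in each library of that population. It is one of the cells paired with a barcode at 1 base. This cell held 53 of the 53 F13a1 UMIs and 85.2% of the Prg4 UMIs of tendon fibroblasts 2 in library 4. The other 3, in library 1, carried 732, 151 and 32 UMIs of Prg4 and 1 or 2 UMIs each of Clic5, Tspan15, F13a1 and Cyp1b1. In the same order they had 7, 6 and 0 UMIs of Pla1a and 38703, 56107 and 6744 CPM of the tendon fibroblast markers.

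Bursal cells differed in which of F13a1 and Pla1a they carried. F13a1 had more UMIs than Pla1a in 14 cells, Pla1a had more in 23, and 3 were equal. Library 1 had 8 cells with more F13a1 and 20 with more Pla1a, library 3 had 4 and 1, and library 4 had 2 and 2. A set of 7 cells had 10 or more F13a1 UMIs and at most 1 Pla1a UMI, 2 in library 1, 4 in library 3 and 1 in library 4. This set was chosen after its values were seen, so its values are given with no test. Its cells had a median of 3100 CPM of F13a1 against 350 CPM in the other 33 cells, 1026 against 743 CPM of Tspan15, 5411 against 3172 CPM of Clic5 and 240 against 851 CPM of Cyp1b1. The type I collagen transcripts of tendon matrix were low in the 7 cells, with medians of 318 CPM of Col1a1 and 521 CPM of Col1a2 against 4086 and 3618 CPM. Rgs5, 1 of 9 pericyte and smooth muscle markers, had a median of 1073 CPM in the 7 and 0 in the 33. The 9 markers summed to a median of 1260 against 130 CPM. Of these markers Kcnj8 and Abcc9 were at 0 in bursal fibroblasts, and 0 of the 9 were highest there. Their bursal sum was 161 to 1295 CPM per library, against 16268 to 29074 CPM in pericytes. Of the lining markers, the 7 cells had medians of 2546 against 950 CPM of Htra4, 485 against 234 CPM of Has1, 853 against 645 CPM of Cd55, 757 against 810 CPM of Col22a1 and 112671 against 159162 CPM of Prg4. The part of library in this split was not tested.

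**Figure D4:**
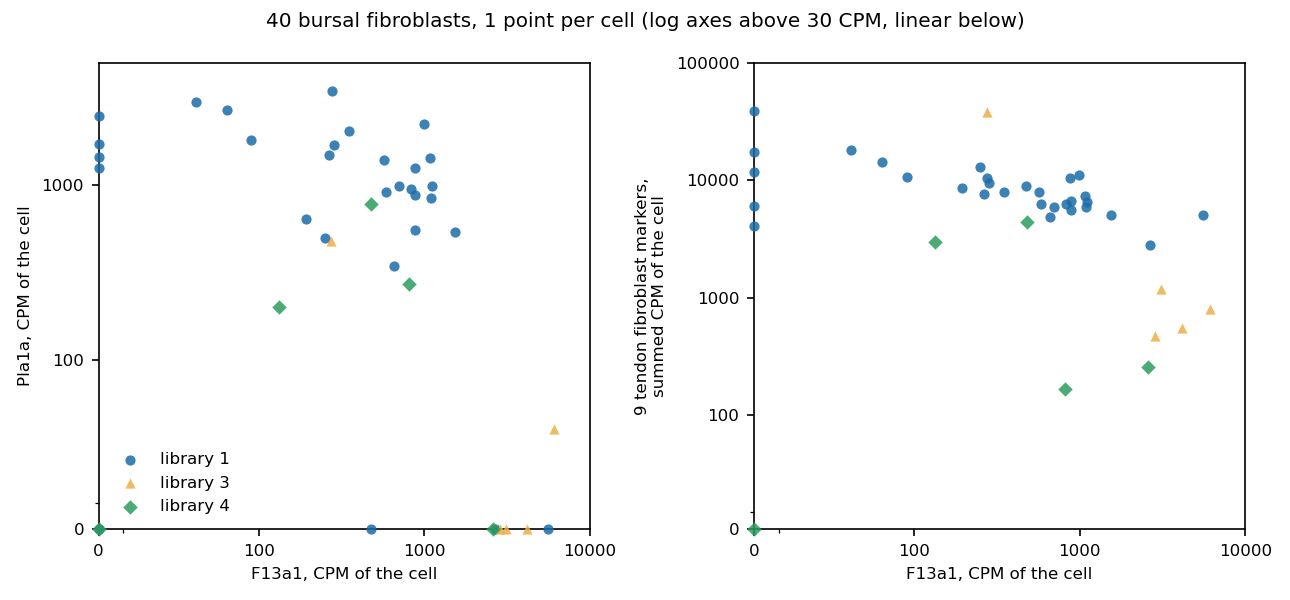
Each of the 40 bursal fibroblasts by its F13a1 level and, left, its Pla1a level or, right, the summed level of 9 tendon fibroblast markers, in CPM of the cell (log axes above 30 CPM, linear below), coloured by library. Of the 5 cells of library 3, 4 have high F13a1 with Pla1a at or near 0, and the 7 cells described in the text have 259.5 to 5119 CPM of the tendon markers.

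The tests of the 7 genes leave bursal fibroblasts out. They compare the remaining populations over UMI sums per library and population. In these tests a gene was called at an adjusted p of 0.05 over all genes tested, and genes with too few counts were not tested. Of the 7 genes, 2 passed that filter between tendon fibroblasts 1 and 2, 3 in the comparisons of endothelial cells 1 with tendon fibroblasts 1, endothelial cells 2 and pericytes, and 4 between immune cells and endothelial cells 1. The 4 comparisons with endothelial cells 1 share those cells, so they are not independent. A gene could pass the filter through its counts in 1 of the 2 populations alone, so its call is not independent of having passed. This held for F13a1 in immune cells, for Prg4 in tendon fibroblasts 1 against endothelial cells 1, and for Clic5 in tendon fibroblasts 2 against tendon fibroblasts 1. It also held for Clic5 and Tspan15 in endothelial cells 1 against immune cells, tendon fibroblasts 1 and pericytes.

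Clic5 was higher in endothelial cells 1 than in endothelial cells 2. It was higher in 4 of 4 libraries, at 546 ± 95.1 against 57.1 ± 19.2 CPM (SD, n = 4), a log2 fold change of 3.27 ± 0.22 (SE, edgeR adjusted p = 3.0e-08). In single cells thinned to 2400 UMIs, 56.8% of endothelial cells 1 (interval 49.2 to 64.2) and 8.70% of endothelial cells 2 (3.26 to 18.0) had a Clic5 UMI, against 0.943% of red blood cells. The unthinned shares were 81.6%, 32.4% and 1.38%, at medians of 7343, 8322.5 and 4132 UMIs. Endothelial cells 3, with too few libraries to be tested, had a Clic5 UMI in 22 of 32 thinned cells (68.8%, interval 49.99 to 83.9), which overlaps endothelial cells 1. Tspan15 and Prg4 did not pass the test between these populations (log2 0.48 ± 0.28 and 0.25 ± 0.35, SE, edgeR adjusted p = 0.292 and 0.714). Of the 7 genes, 1 of the 3 tested was called, where 18.2% of all tested genes were.

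Pericytes, the mural cells of small vessels, had 64.2 ± 36.0 CPM of Clic5 and 36.6 ± 39.0 CPM of Tspan15 (SD, n = 4), both lower than endothelial cells 1 in 4 of 4 libraries. The log2 fold changes were -3.06 ± 0.31 for Clic5 and -2.03 ± 0.38 for Tspan15 (SE). No p is given for Clic5 or Tspan15, since they entered the test through their endothelial counts. The Prg4 difference was -0.44 ± 0.31 (SE, edgeR adjusted p = 0.329). Calls were made for 2 of 3 tested genes, against 34.2% of all tested genes, from which nothing is read. Pla1a was too sparse to be tested. It had 21 UMIs in pericytes and 8 in endothelial cells 1, a CPM ratio of 4.38 (95% interval 1.86 to 11.4, counting error only).

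Immune cells held F13a1 and almost none of Clic5 or Tspan15, which the endothelium carried. F13a1 was at 1466 ± 669 CPM in immune cells and 2.09 ± 2.81 CPM in endothelial cells 1 (SD, n = 3), higher in 3 of 3 libraries. No p is given for it, since it entered the test through its immune counts. The second level rests on 2 UMIs, and the CPM ratio was 1387 with a counting interval of 383 to 11464. Clic5 had 2 UMIs in immune cells against 884, and the ratio was 173 in favour of endothelial cells 1, with an interval of 47.8 to 1431. Tspan15 had 0 UMIs against 200, which is at least 26.1-fold lower with a floor of 3 counts over the immune cells. No p is given for Clic5 or Tspan15 either, since they entered the test through their endothelial counts. Prg4 did not pass the test (log2 -0.65 ± 0.53, SE, edgeR adjusted p = 0.421). Among all tested genes 30.2% were called, and of the 4 members that passed the filter Clic5, Tspan15 and F13a1 were, from which nothing is read. In library 4, outside this test with 3 immune cells, F13a1 was at 80.3 CPM.

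Tendon fibroblasts 1 carried Prg4 with little Clic5 or Tspan15. Against endothelial cells 1, Prg4 was at 6890 ± 1470 and 65.4 ± 40.8 CPM (SD, n = 4), a log2 fold change of 7.38 ± 0.41 (SE). Clic5 was at 3.46 ± 5.28 against 546 ± 95.1 CPM (SD, n = 4), a change of -6.07 ± 0.36 (SE). Tspan15 was at 7.18 ± 2.92 against 123 ± 38.6 CPM (SD, n = 4), a change of -3.38 ± 0.34 (SE). No p is given for these 3 genes. Prg4 entered this test through its tendon fibroblast counts, and Clic5 and Tspan15 through their endothelial counts. Each direction held in 4 of 4 libraries. Calls were made for 3 of 3 tested genes, against 46.8% of all tested genes, from which nothing is read. Without TMM scaling the median change of all genes moved from -0.02 to -0.60, and the 3 genes kept their directions and their calls.

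Between tendon fibroblasts 1 and 2 neither tested gene was called, where 8.12% of all tested genes were. Prg4 was at 6269 ± 964 and 4601 ± 2162 CPM (SD, n = 3), higher in tendon fibroblasts 1 in 2 of 3 libraries (log2 0.74 ± 0.31, SE, edgeR adjusted p = 0.225). Without library 4 it was 1.17 ± 0.28 (SE, edgeR adjusted p = 0.0446, 2 libraries), and library 4 is the one in which a single cell held 85.2% of the Prg4 UMIs of tendon fibroblasts 2. Clic5 was at 4.61 ± 5.81 against 49.9 ± 47.5 CPM (SD, n = 3), lower in tendon fibroblasts 1 in 3 of 3 libraries (log2 -2.36 ± 0.72, SE). No p is given for Clic5, since it entered the test through its counts in tendon fibroblasts 2. Without library 1 its log2 fold change was -4.16 ± 0.87 (SE), and without library 4 it was -1.61 ± 0.63 (SE). All 13 Clic5 UMIs of tendon fibroblasts 2 in library 4 came from that same cell. F13a1 and Cyp1b1 did not pass the filter. They had 2 and 0 UMIs in tendon fibroblasts 1 against 97 and 46 in tendon fibroblasts 2, and 53 of the 97 came from the single cell described above. For Cyp1b1 this is at least 14.2-fold higher in tendon fibroblasts 2, in 3 of 3 libraries.

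Genes of the same pathways were read from fixed lists. Of 26 genes of synovial lining and lubrication, 12 had their highest pooled level of the 13 populations in bursal fibroblasts, against 4.36% of all 15746 genes. The list was drawn up with earlier results of these cells known, and the populations were formed from the same counts. By level the list was led by Fn1, the matrix protein fibronectin (32520 ± 8596 CPM, SD, n = 3), the secreted protease Htra4 (2784 ± 1912 CPM, 1725 without library 3), the growth factor Hbegf (2685 ± 1510 CPM) and Cd55, a regulator of complement on lining cells (1051 ± 280 CPM). Between bursal fibroblasts and tendon fibroblasts 1, 12 of 20 tested list genes were higher in bursal cells, against 6.00% of all tested genes, and 5 were lower, against 8.99%. The median log2 fold change was 1.59 for the list and -0.02 for all genes. Those higher included Has1, which makes hyaluronan, Ugdh, which makes its sugar precursor, and Cd44, its receptor. The fibrillar-associated Col22a1 was at 917 ± 158 CPM against 1 UMI in tendon fibroblasts 1, a ratio of 1531 (interval 274 to 60535). Lower were Htra1, Dkk3, Gdf5, Tspan2 and Cilp, and Cilp, a cartilage matrix protein, had 2 UMIs against 7597. Thy1, a marker of the fibroblasts beneath a synovial lining, Mmp3 and Erg had 0 UMIs in bursal cells, which allows up to 3.605 CPM (3 of 832161 UMIs).

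Of 9 genes of the chloride intracellular channel and ezrin list in the table, 0 had their highest level there. Clic4 (575 ± 336 CPM), Msn (480 ± 169 CPM), Rdx (294 ± 59.6 CPM) and Clic1 (210 ± 53.0 CPM, each SD, n = 3) led the list. Of 6 tested, 1 was higher in bursal fibroblasts than in tendon fibroblasts 1 and 0 lower, with a median log2 fold change of 0.14 against -0.02 for all genes. It was Slc9a3r1, a scaffold that binds ezrin, at 90.0 ± 35.4 against 1.96 ± 1.71 CPM (SD, n = 3, log2 4.81 ± 0.60, SE). No p is given for Slc9a3r1, since it entered the test through its bursal counts. In endothelial cells 1, where Clic5 was second highest, 3 of these genes were also higher. Podxl, which anchors ezrin at the luminal face, Slc9a3r2 and Rdx were higher than in endothelial cells 2 (3 of 6 tested, where 18.2% of all genes were called, 0 lower, median log2 0.27 against 0.02 for all genes), at 886 ± 193 against 267 ± 16.8 CPM for Podxl (SD, n = 4). Against pericytes, 5 of 6 were higher in endothelial cells 1, where 34.2% of all genes were called in either direction (median log2 -0.97 in pericytes, against -0.01 for all genes). Against tendon fibroblasts 1 and against immune cells, 4 of 7 tested list genes were higher in endothelial cells 1. There 46.8% and 30.2% of all tested genes were called. Ezr, which encodes ezrin, was the 1 that was lower, the reverse of Clic5. It was at 9.31 ± 6.22 CPM in endothelial cells 1 against 124 ± 17.0 CPM in tendon fibroblasts 1 (SD, n = 4). Against immune cells it was at 8.11 ± 7.03 and 199 ± 169 CPM (SD, n = 3). Podxl had 0 UMIs in bursal fibroblasts.

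Adam10, the protease that pairs with Tspan15, was at 145 ± 35.2 CPM in bursal fibroblasts (SD, n = 3), with tendon fibroblasts 1 at 49.96 ± 18.5 CPM, higher in 3 of 3 libraries (log2 1.37 ± 0.32, SE, edgeR adjusted p = 0.00875). It ranked 7 of 13 in bursal fibroblasts and was highest in nerve cells 1 (759.9 CPM), the population with the second highest Tspan15. The other tetraspanins of that group were low in bursal cells, with Tspan5 at 82.3 ± 16.2, Tspan17 at 40.3 ± 8.23 and Tspan14 at 19.0 ± 10.1 CPM (SD, n = 3), and Tspan33 at 0. Of 3 tested, Adam10 was the 1 called between bursal fibroblasts and tendon fibroblasts 1, with a list median of 1.12 against -0.02 for all genes. Against endothelial cells 1, Adam10 was lower in tendon fibroblasts 1 (log2 -1.46 ± 0.22, SE, edgeR adjusted p = 7.5e-06) and in pericytes (log2 -1.19 ± 0.20, SE, edgeR adjusted p = 0.000923), as Tspan15 was. In immune cells, where Tspan15 had 0 UMIs, Adam10 was at 114 ± 7.57 against 183 ± 12.7 CPM (SD, n = 3) and did not pass the test (log2 -0.69 ± 0.36, SE, edgeR adjusted p = 0.163).

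The tissue transglutaminase Tgm2, a relative of F13a1, was at 375 ± 194 CPM in bursal fibroblasts (SD, n = 3), with tendon fibroblasts 1 at 147 ± 27.4 CPM (log2 1.06 ± 0.31, SE, edgeR adjusted p = 0.0344). Of 4 tested genes of the clotting list it was the 1 that was higher, and Plat, the tissue plasminogen activator, was the 1 that was lower, with 2 UMIs against 93. The median log2 fold change of the 4 was 0.42, against -0.02 for all genes. Thbd, the thrombin receptor thrombomodulin, was at 107, 369 and 71.2 CPM in the bursal cells of libraries 1, 3 and 4 (182 ± 163, SD, n = 3), with library 3 the highest and a mean of 88.9 CPM without it. Tgm2 was lower in immune cells than in endothelial cells 1 (log2 -2.85 ± 0.43, SE, edgeR adjusted p = 3.2e-07), the reverse of F13a1 in the same comparison.

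The bursal cells that carried Cyp1b1 had 0 UMIs of Ahr, its receptor, of Ahrr and of Cyp1a1, each with the limit of 3.605 CPM given above. Arnt, the partner of the receptor, was at 46.2 ± 6.32 CPM (SD, n = 3). Of 4 tested genes of this list, 1 was higher and 1 lower in bursal cells, with a median log2 fold change of -0.18 against -0.02 for all genes. Tiparp, another target of the receptor, was lower than in tendon fibroblasts 1, at 23.9 ± 31.7 against 112 ± 35.8 CPM (SD, n = 3, log2 -2.84 ± 0.51, SE). Aldh1a3, which makes retinoic acid, was higher, at 397 ± 330 against 15.7 ± 0.56 CPM (SD, n = 3, log2 4.30 ± 0.42, SE). It was the 1 of 12 genes of this list with its highest level in bursal fibroblasts. No p is given for either gene. Tiparp entered the test through its counts in tendon fibroblasts 1, and Aldh1a3 through its bursal counts. Without library 3 the bursal mean was 207 CPM for Aldh1a3 and 5.92 CPM for Tiparp. Ahr was found in endothelial cells 1 at 71.0 ± 25.2 CPM (SD, n = 4), where Cyp1b1 had 0 UMIs. Por, the electron donor of P450 enzymes, was at 19.8 ± 18.1 CPM in bursal cells (SD, n = 3), 29.6 without library 3 and 11.8 without library 4.

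For Pla1a, 0 of 3 tested genes of the phospholipase list differed between bursal fibroblasts and tendon fibroblasts 1, with a median log2 fold change of -0.04 against -0.02 for all genes, and 0 of 11 had their highest level in bursal cells. The synthases of its substrate, Ptdss1 (42.6 ± 7.11 CPM) and Ptdss2 (13.1 ± 2.80 CPM), and the hydrolases Abhd12 (62.8 ± 50.9 CPM) and Abhd16a (34.2 ± 30.9 CPM, each SD, n = 3) were present. Without library 3 the hydrolases were at 34.4 and 16.4 CPM. The receptors of lysophosphatidylserine, Gpr34, P2ry10 and Gpr174, had 0 UMIs in bursal fibroblasts. Gpr34 was at 301 ± 141 CPM in immune cells (SD, n = 3) against 1 UMI in endothelial cells 1, a ratio of 631 (interval 112 to 25013).

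The genes most like each member were ranked by Pearson's r of log2(pooled CPM + 1) over the 13 populations, among 7181 genes with 50 CPM or more in at least 1 population. The populations share libraries and differ in depth, so r is a description. Pla2g2e (r = 0.98) and Has1 (0.97) were nearest to Prg4, and Bglap (0.97) and Pkp1 (0.96) to Tmem196. Dlx3 (0.94) and Bglap2 (0.91) were nearest to Cyp1b1, and Rab37 (0.92) and Tmem196 (0.89) to Pla1a. Those genes, too, were highest in bursal fibroblasts. The nearest to Clic5 was Plxna2 (0.86), highest in endothelial cells 1, to Tspan15 Itih5 (0.88), highest in nerve cells 3, and to F13a1 Slc7a8 (0.85), highest in immune cells. Between members, r ran from -0.23 (Tspan15 and F13a1) to 0.89 (Pla1a and Tmem196). Bglap and Bglap2, osteocalcin genes, are near-identical copies, and their counts may be split between them.

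On GRCm38 the genes lie apart, with Clic5 (44188584 to 44280172) and Cyp1b1 (79701537 to 79715061) sharing chromosome 17. Prg4 lies on chromosome 1 (150449412 to 150466165, minus strand), Tspan15 on 10 (62185396 to 62231251), Tmem196 on 12 (119945822 to 120021246), F13a1 on 13 (36867178 to 37050244) and Pla1a on 16 (38396117 to 38433145). The last 524 bases of Prg4 overlap the end of Tpr on the other strand, which had 2892 UMIs in all cells against 156504 of Prg4. F13a1 overlaps 2 antisense genes. Whether the authors' counting used strand is not given in the sources used here.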

How the data were processed

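Raw UMI counts for each gene in each cell, normalized values on a natural log scale, and the library and population name of every cell were deposited by the authors as 3 tables. Cell Ranger, Seurat 2.3.4, R 3.5.2 and the mm10 build are named per the submitters' processing notes, without their roles; the filters and the clustering are not given in the sources used here. The deposited counts were used for every result and the natural log values for none. Of 15750 gene entries, 4 under a repeated name (0.0186% of UMIs) were left out. No cell was removed and no doublet caller was run.

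UMIs were summed per library and population (5 or more cells, 3 or more libraries) and tested with edgeR 4.0.16 in R 4.3.3 (quasi-likelihood test, TMM, filterByExpr, library as a block, Benjamini-Hochberg adjustment over all genes tested). The library is a block because the sums being compared are cells of 1 library; the deviations of such sums correlated between -0.03 and 0.13 over genes. Because the authors formed the populations from these counts, no test here asks whether a population exists. In simulated counts, 200 genes were given a log2 change of 2. Of these, 82.0% were recovered for tendon fibroblasts 1 against 2 (7143 genes) and 85.5% for tendon fibroblasts 1 against endothelial cells 1 (5641 genes). Recovery was 61.5% for immune cells (5604 genes) and 80% for pericytes, each against endothelial cells 1. It was 76.5% for endothelial cells 1 against 2 and 68.5% for bursal fibroblasts against tendon fibroblasts 1. The changed genes were drawn from those above a set mean level, with a fixed spread and no library effect. Recovery of sparser or more variable genes was therefore not measured. Shares of cells were also computed after thinning cells to 2400 UMIs, leaving out 114 shallower cells, 3 of them bursal. Intervals are exact (Poisson, or Clopper-Pearson for shares) at 95% and, like the floor of 3 counts, cover counting error only. Positions come from GENCODE M21. An alternative test used DESeq2 1.42.0, and other steps ran in Python 3.11.15 with pandas 2.3.3, scipy 1.17.1 and numpy 2.4.6.

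The members and the gene lists were chosen with earlier results of these data known. Named genes are the 7 members, the 3 genes most like each, and, of each list, the 4 highest in bursal fibroblasts and up to 4 called genes with the largest change per comparison; those given in the text are a part of these. Other list genes are named to say what a count is made of or which were at 0, and the genes compared between the 7 and 33 bursal cells were chosen after their values were seen. One gene of these lists is not reported here.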

Additional observations from a re-analysis of the deposited data

How the results depend on the processing

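Of 149 repeats of the 15 member tests under other settings, 141 kept their direction and side of the threshold, 0 reversed, and 8 passed it where the reported fit did not. All 8 concern tendon fibroblasts 1 against 2. The repeats are not all separate fits. With 10 or more cells per sum, the fit of pericytes against endothelial cells 1 is the reported one. In the other member comparisons that setting is the same fit as leaving out 1 library. Prg4 passed without the filter on low counts (log2 0.76, edgeR adjusted p = 0.0318), thinned (1.10, adjusted p = 0.00374) and without library 4 or with 10 or more cells per sum (1.17, adjusted p = 0.0446). Clic5 passed with DESeq2 (log2 -2.74), without TMM (-2.57), without the filter (-2.34) and without library 1 (-4.16). No p is given for Clic5, which entered the filtered fits through its counts in tendon fibroblasts 2. The cause of these 8 passes was not tested. Counts of called genes moved more. The reported counts were 572 (tendon fibroblasts 1 against 2), 2722 (tendon fibroblasts 1 against endothelial cells 1), 933 (endothelial cells 1 against 2), 1698 (immune cells against endothelial cells 1), 1877 (pericytes against endothelial cells 1) and 777 (bursal fibroblasts against tendon fibroblasts 1). In that order, thinned cells, which have fewer UMIs, gave 292, 787, 300, 596, 493 and 187. DESeq2 gave 371 for the first, 570 for the third and 503 for the last. No filter, which tests more genes, gave 1073 for the first, 2918 for pericytes and 1216 for the last. Leaving out 1 library gave 362 (without library 1) to 529, 2058 to 2842, 484 (without library 2; 616 without library 1) to 997, 773 (without library 1) to 2156, 1310 to 2238 and 380 (without library 1) to 892. Fits on 2 libraries take their spread from few sums. Without the library block (no replicate block) the counts were 547, 2815, 880, 1891, 1993 and 817, and no call of a member changed. Without TMM the share of calls higher in tendon fibroblasts 1 fell from 53.3% to 39.0% against tendon fibroblasts 2 and from 48.0% to 21.4% against endothelial cells 1, with medians of all genes of -0.18 and -0.60. The Prg4 share in bursal fibroblasts was 70.8% to 89.9% without 1 library, 66.9% thinned and 65.3% by mean cell level. Bursal means stayed within 1 SD between libraries except Tspan15 when thinned (1049 CPM). Without 1 library they ranged from 100871 to 146799 CPM for Prg4, 927 to 2397 for F13a1, 410.1 to 766 for Cyp1b1, 182 to 771 for Pla1a, 175 to 278 for Tmem196, 2987 to 3391 for Clic5 and 859 to 958 for Tspan15. Pooled levels and shares without 1 library, given with the results, and leaving out the shallow cell of each barcode pair were chosen after seeing the data. The second changed no call of a member. For it the minimum was lowered to 4 cells per sum, which kept bursal fibroblasts at 3 libraries. The bursal comparison with 10 or more cells per sum was not run, since only library 1 has that many, and the thinned one rests on libraries 1 and 3.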
